A study of Mus musculus with 12 samples.

Results

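The family of mmu-miR-148a, mmu-miR-148b and mmu-miR-152 consists of 3 mouse miRNAs that share the stretch of bases with which a miRNA recognises its targets. They were found by name among the non-control probes of a mouse miRNA array and make up 3 of the 650 miRNAs with probes on it. Each had 2 probes of 10 spots. The family was chosen by measured values: miR-148a had already shown differences on these same arrays between untreated knockout and wild type cells, between 24 and 12 h of treatment, and in the direction of the 24 h response of each genotype. Its values are therefore a description and carry no test. miR-148b and miR-152 entered through their sequence, and of these miR-152 was bright enough to be tested.

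The arrays hold total RNA of mouse embryonic fibroblasts on a C57BL/6 background, labelled with one dye, Cy3. The ATF6aKO cells are deficient in ATF6a and were left untreated or given 2 ug/mL tunicamycin for 12 or 24 h. The ATF6aWT cells carry the intact gene and had the same 3 conditions. Each of the 6 groups held 2 arrays from experiments described as independent, and neither the construction of the ATF6a allele nor the number of embryos or cell lines behind a genotype is given in the sources used here. ATF6a is a sensor of protein folding in the endoplasmic reticulum that is released by proteolysis during stress and then acts as a transcription factor, and tunicamycin provokes that stress by blocking N-linked glycosylation. The array measures miRNAs, so the loss of ATF6a itself could not be checked in these data.

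A miRNA guides an Argonaute protein to messenger RNAs that pair with its seed, bases 2 to 8 from its 5′ end, and lowers their translation and stability. The members of this family can therefore act on overlapping sets of messages, and the maintenance DNA methyltransferase Dnmt1 is the target for which miR-148a and miR-152 are best known. miR-148b and miR-152 are made from hairpins within Copz1 and Copz2, genes for the zeta subunits of the COPI coat, which carries cargo from the Golgi back to the endoplasmic reticulum.

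The mature sequences show how close the members are, which matters for any probe meant to tell them apart. They are those of RefSeq on GRCm38.p6, matched by name, where the array's older names stand for the arm now called 3p. They are written 5′ to 3′ with the seed in capitals.
mmu-miR-148a-3p: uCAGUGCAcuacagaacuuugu
mmu-miR-148b-3p: uCAGUGCAucacagaacuuugu
mmu-miR-152-3p: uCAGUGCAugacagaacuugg
All 3 hold the seed CAGUGCA, and they are the only mature miRNAs of that table that do. Counting from 1 at the 5′ end, miR-148b differs from miR-148a by C9U and U10C, with 20 of 22 bases identical. miR-152 differs from miR-148a by C9U, U10G and U20G, with 18 of 21 compared bases identical. The probe sequences were not used here, so whether a probe separates these miRNAs was not tested.

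On GRCm38.p6 the mature miR-148a lies on the minus strand of chromosome 6 at chr6:51269829-51269850, within the span of the predicted gene Gm38821 (chr6:51222957-51280572). Mature miR-148b lies on the plus strand at chr15:103285185-103285206, within the span of Copz1 (chr15:103272888-103299865). Mature miR-152 lies on the plus strand at chr11:96850439-96850459, within the span of Copz2 (chr11:96849876-96861203).

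The array files set limits on every comparison that follows. Slide 1 held the 4 untreated arrays and slide 2 the 8 treated ones, so a difference by treatment and one by slide cannot be told apart. Every knockout array lay in row position 2 and every wild type array in row position 1 of its slide, so neither can genotype and position be told apart. The replicate 2 arrays of the treated groups, scanned together as run 4, were the least sensitive. Their lowest signal well above background was between -3.67 and -2.87 on the log2 scale, against -5.65 to -4.75 on the other 8 arrays. Of 8 miRNAs known from fibroblasts and other mesenchymal cells, 6 or 7 were well above background on each array, and 1 was on none. None of the 6 epithelial, 5 blood, 2 neural and 1 liver miRNAs was so on any array. At most 1 of 3 muscle miRNAs and at most 1 of 5 pluripotent cell miRNAs was so on an array. Levels below are log2 signals after each array was divided by its own 75th percentile over 87 bright probes, so a level of 0 equals that percentile, and no signal was allowed under a floor of -5.02.

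After scaling, mmu-miR-148a lay 2.28-fold lower in untreated knockout than in untreated wild type fibroblasts. Its level was -4.45 and -4.25 in the 2 untreated knockout arrays, against -3.24 and -3.08 in the 2 untreated wild type arrays. The groups did not overlap, and all 4 arrays were well above background, with every spot used counted as such. The RNA came from whole cultures, so fewer cells with a miRNA and less of it per cell cannot be told apart. The log2 difference of knockout minus wild type was -1.19 ± 0.12 (SE, n = 2 arrays a group). It was -1.21 within run 1 and -1.17 within run 2. In this comparison 28.0% of the 175 miRNAs tested passed an adjusted p of 0.05 in limma, 24.6% of them all as lower in the knockout, and nothing is read from that share for miR-148a.

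Both probes of miR-148a showed this difference, at -1.16 for probe 1 and -1.22 for probe 2. Before scaling, probe 2 had a mean spot signal of 41.7 ± 4.0 and 34.5 ± 3.4 (SD over spots) in untreated knockout cells, against 58.8 ± 4.6 and 70.0 ± 2.3 in untreated wild type cells. The unscaled log2 ratios of that probe were -0.50 in replicate 1 and -1.02 in replicate 2. The scaling percentile in the same order of replicates was 630 and 467 in the knockout, against 373 and 418 in wild type. The unscaled signals thus ran the same way, against -1.26 in replicate 1 and -1.18 in replicate 2 after scaling. In replicate 1, where the scaling percentiles of the 2 arrays differed most, most of the difference came with the scaling. Over all probes the 75th percentile of that replicate was 4.24 in the knockout and 3.73 in wild type.

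By the scaled probe signals, miR-148a was lower in treated than in untreated wild type cells, and the level at 24 h lay above that at 12 h. Both probes were kept because they were well above background on every array of the untreated groups of both genotypes. No treated group met that on either probe, and such a filter favours a lower value after treatment. The level in wild type cells was -3.24 and -3.08 untreated, -4.81 and -4.74 at 12 h, and -4.01 and -3.95 at 24 h. None of the 3 groups overlapped with another. The replicate 2 level of -3.95 at 24 h lay under the lowest signal well above background on that array, -2.87. Of all tested miRNAs 38.3% were called as lower at 12 h and 33.7% at 24 h, and nothing is read from those shares for miR-148a. The log2 difference from untreated was -1.62 ± 0.12 at 12 h, but 0.58 in the deposited series table. Its size at 12 h depends on the floor, since probe 1 was at the floor in replicate 1 with 1 of 10 spots well above background, and the replicate 2 level of -4.74 lay under that array's limit of -3.67. It was -0.82 ± 0.12 at 24 h, and turned to 0.10 with normexp, 0.69 with the miRNA's summed signal from the scanner software, and 0.46 in the deposited table.

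In knockout cells the same treatment gave a small difference at 12 h, which the floor bounds, and a higher level at 24 h. The level in knockout cells was -4.45 and -4.25 untreated, -4.61 and -4.85 at 12 h, and -3.66 and -3.82 at 24 h. Both 24 h arrays lay above both untreated arrays, and both 12 h arrays lay below them. The log2 difference was -0.38 ± 0.12 at 12 h and turned to 0.09 with normexp. Probe 1 was at the floor on both 12 h arrays and already at -4.98 on the untreated replicate 1 array, so a larger fall of that probe could not register. With the floor doubled the 12 h difference was -0.089, and with it halved -0.64. The difference at 24 h was 0.61 ± 0.12, and turned to -0.02 when arrays were scaled on all probes. Unscaled log2 ratios of 24 h over untreated were 0.44 for probe 1 and 0.38 for probe 2 in replicate 1. In replicate 2 they were -0.30 and -0.18, so the rise there came with the scaling. The scaling percentiles of that replicate were 295 at 24 h and 467 untreated.

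The 24 h values therefore had opposite signs in the 2 genotypes, and this contrast was among those for which miR-148a was chosen. The knockout response minus the wild type response was 1.43 ± 0.16 at 24 h. This value shrank to 0.18 in the deposited table, 0.20 with the summed signal, 0.58 where all probes set the scale and 0.43 with normexp. At 12 h, where both responses were negative, it was 1.23 ± 0.16, and turned to -1.04 in the deposited table. The 12 h size also depends on the floor, which probe 1 reached on both knockout arrays. It was 0.77 with the floor doubled and 1.06 with it halved. The percentage of all tested miRNAs called was 13.1% for the 24 h interaction and 9.71% for that at 12 h, and nothing is read from them for miR-148a. Both interactions contain the untreated genotype difference, since treated knockout and wild type cells lay closer together. Knockout minus wild type was 0.04 ± 0.12 at 12 h, where the arrays of the 2 genotypes overlapped and the sign turned in 5 of the other settings and without the replicate 1 knockout array at 12 h. It was 0.24 ± 0.12 at 24 h, and turned to -0.17 when scaled on all probes, -0.28 with normexp, -0.55 in the deposited table and -1.09 with the summed signal.

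Between 12 and 24 h the level of miR-148a was higher at the later time in both genotypes. The log2 difference of 24 h minus 12 h was 0.99 ± 0.12 in knockout and 0.80 ± 0.12 in wild type cells, and the wild type value turned to -0.12 in the deposited table. The knockout value was 0.40 with the floor doubled, 0.44 with normexp and 2.19 with the summed signal. The wild type value was 0.26 with the floor doubled and 2.45 by the summed signal. All 4 of these groups are on slide 2, so the slide does not separate the times. In the replicate 2 arrays the unscaled log2 ratio of 24 h over 12 h was 0.66 for probe 1 and 0.46 for probe 2 in knockout cells. In wild type cells of that replicate it was -0.30 for probe 1 and 0.02 for probe 2, and the scaled differences of 0.63 and 0.96 arose on arrays whose scaling percentiles were 177 at 24 h and 337 at 12 h. In this comparison 2.29% of tested miRNAs were called in knockout and 1.14% in wild type cells, and nothing is read from that for miR-148a.

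The depth of signal behind the treated values was uneven. On the replicate 1 arrays miR-148a was well above background in every group, where that means over 50% of the spots of at least 1 probe. It was so by 9 of 20 spots at 12 h and 19 of 19 at 24 h in knockout cells, and by 7 of 20 at 12 h and 16 of 19 at 24 h in wild type cells. On the replicate 2 arrays it was not well above background in any treated group, with 0 of 18 spots at 12 h and 4 of 20 at 24 h in knockout cells and with 0 of 18 at 12 h and 0 of 19 at 24 h in wild type cells. Its level on these 4 arrays lay below the lowest signal that counted as well above background there. With the 4 arrays of run 4 left out, the log2 difference from untreated was -0.26 at 12 h and 0.68 at 24 h in knockout cells, and -1.65 at 12 h and -0.85 at 24 h in wild type cells.

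**Figure D1:**
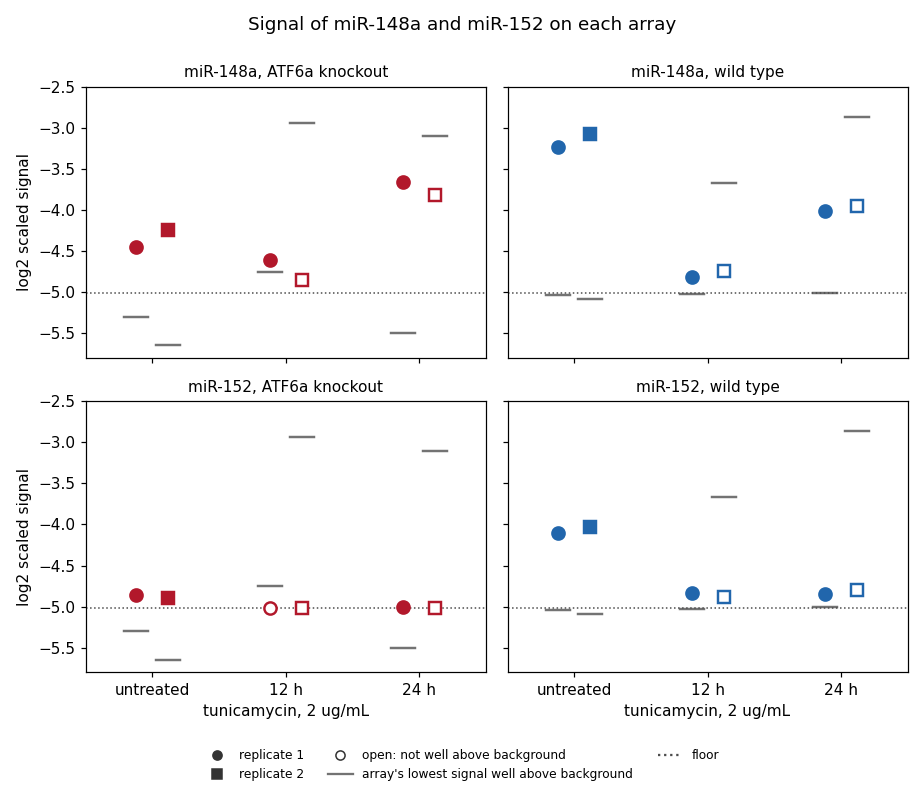
Log2 scaled signal of miR-148a (top) and miR-152 (bottom) on each of the 12 arrays, with ATF6a knockout cells on the left and wild type cells on the right, by treatment; circles are replicate 1, squares replicate 2, filled where the miRNA was well above background, and grey ticks mark the lowest signal well above background on that array. The open squares of the treated groups lie under ticks between -3.67 and -2.87, while every untreated point is filled and lies above its tick.

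Ordered by mean level, miR-148a was highest in untreated wild type cells at -3.16 ± 0.11 (SD, n = 2, as for the values that follow). Knockout cells at 24 h came next at -3.74 ± 0.11, then wild type cells at 24 h at -3.98 ± 0.04, an order that turned under the settings named above. Untreated knockout cells stood at -4.35 ± 0.14. The lowest were knockout cells at 12 h, at -4.73 ± 0.17, and wild type cells at 12 h, at -4.78 ± 0.05, the only neighbours in this order whose arrays overlapped.

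mmu-miR-152, the member encoded in Copz2, was also lower in untreated knockout than in untreated wild type cells. Its level was -4.86 and -4.90 in the untreated knockout arrays, against -4.10 and -4.03 in the untreated wild type arrays. The groups did not overlap, and all 4 arrays were well above background, by 12 and 13 of 20 spots in the knockout and by 20 of 20 and 19 of 19 spots in wild type. By probe 2 alone, on which all 10 spots were well above background on both untreated knockout arrays, the log2 difference was -1.07 (limma, adjusted p = 7.38e-05). Averaged over both probes it was -0.82 ± 0.06 (limma, adjusted p = 8.33e-05 over 175 miRNAs), with -0.76 in run 1 and -0.87 in run 2. That average includes probe 1, whose difference had to be negative, as set out below, so nothing beyond the value of probe 2 is read from it. By the average miR-152 was 1 of the 49 miRNAs, 28.0% of those tested, that passed. Its adjusted p over the other settings lay between 2.87e-07 and 0.999, and its difference was negative under every other setting run, each array left out included. Several of these settings, such as leaving out a treated array, could not move that difference.

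Probe 1 of miR-152 was at the floor in every group but untreated wild type, and it entered the test through that group alone. In untreated knockout cells 2 and 3 of its 10 spots were well above background. Its own log2 difference of -0.56 therefore had to be negative, its size is set by the floor, and it carries over into the averaged value. Probe 2 stayed above the floor on all 4 untreated arrays. With the floor doubled the difference of miR-152 shrank to -0.17 and with the floor halved it grew to -1.16. The unscaled signal of probe 2 was 24.1 ± 3.8 and 17.0 ± 3.3 (SD over spots) in untreated knockout cells, against 28.9 ± 3.0 and 33.1 ± 4.0 in untreated wild type cells. The unscaled log2 ratios of that probe were -0.26 in replicate 1 and -0.96 in replicate 2, against -1.02 and -1.12 after scaling. In replicate 1 most of the difference thus came with the scaling. Replicates at a floor have equal values, so p-values of a miRNA with groups there are smaller than measured spread would make them.

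In wild type cells miR-152 passed the test as lower after tunicamycin, at a level close to the floor, which sets much of the size of the difference. Probe 1 was at the floor on all 4 treated arrays and had passed the filter through the untreated group. Probe 2 had passed it through the untreated groups of both genotypes. No treated group had both arrays well above background on either probe. A filter passed by untreated groups alone favours a call as lower, so the calls below are not read as a response. The level of miR-152 in wild type cells was -4.10 and -4.03 untreated, -4.83 and -4.88 at 12 h, and -4.84 and -4.79 at 24 h. The treated arrays did not overlap with the untreated ones, and the 12 h and 24 h arrays overlapped with each other. The log2 difference was -0.79 ± 0.06 at 12 h (limma, adjusted p = 7.55e-05, from 4.42e-07 to 0.902 over the other settings), but 1.68 in the deposited table. At 12 h 44.6% of tested miRNAs were called, and 38.3% were called as lower. At 24 h it was -0.75 ± 0.06 (limma, adjusted p = 0.000103, from 3.93e-07 to 0.992 over the other settings), and turned to 0.21 with normexp and 1.43 in the deposited table. At 24 h 41.1% of tested miRNAs were called, 33.7% as lower. The deposited table has a miR-152 value for replicate 1 alone in each treated group. Each treated group was well above background on its replicate 1 array alone, by 7 of 20 spots at either time, all of them on probe 2. On the replicate 2 arrays it was so by 0 of 18 spots at 12 h and 0 of 20 at 24 h, at levels under the limits of -3.67 and -2.87 there. With the 4 arrays of run 4 left out the difference was -0.76 at 12 h (limma, adjusted p = 0.00301) and -0.78 for the later time (limma, adjusted p = 0.00292).

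In knockout cells miR-152 did not pass the test after tunicamycin, and its treated levels were at or next to the floor. The 2 untreated knockout arrays stood at -4.86 and -4.90, both 12 h arrays at the floor of -5.02, and the 24 h arrays at -5.00 in replicate 1 and at the floor in replicate 2. It was well above background on 1 of these 4 treated arrays, the replicate 1 array at 24 h, by 9 of 20 spots. The fitted log2 difference at 12 h was -0.14 (limma, adjusted p = 0.180, from 0.0335 to 1 over the other settings), and that at 24 h was -0.13 (limma, adjusted p = 0.246, from 0.0603 to 1). At 12 h 17.1% of tested miRNAs were called, and at 24 h 10.3%. No fold is given for the 12 h group, because the lowest signal well above background on its arrays, a mean of -3.85, exceeded the level of miR-152 in every other group.

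Whether the responses of miR-152 differed between the genotypes could not be read from these arrays. The untreated knockout level, at -4.88 ± 0.03 (SD, n = 2), already stood beside the floor of -5.02, so a fall of the wild type size could not be measured there. The fitted knockout response minus the wild type response was 0.65 ± 0.08 after 12 h (limma, adjusted p = 0.00278, from 3.05e-06 to 1 over the other settings). After 24 h it was 0.63 ± 0.08 (limma, adjusted p = 0.00312, from 2.61e-06 to 1). Both calls were lost with the floor halved, at adjusted p of 0.385 for 12 h and 0.168 for 24 h. In this test 9.71% of miRNAs were called at 12 h and 13.1% at 24 h. Knockout minus wild type was -0.16 in cells treated for 12 h (limma, adjusted p = 0.175, from 0.0295 to 1 over the other settings) and -0.19 in those treated for 24 h (limma, adjusted p = 0.0985, from 0.0123 to 1), in comparisons where 7.43% and 9.71% of miRNAs were called. The lowest p of each range is that of probe 2 alone, and with no filter on dim probes the 24 h value also passed at 0.0498. Between 12 and 24 h miR-152 differed by 0.01 in knockout (limma, adjusted p = 1) and by 0.04 in wild type cells (limma, adjusted p = 0.854).

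By mean level miR-152 was highest in untreated wild type cells at -4.06 ± 0.05 (SD, n = 2). Wild type cells followed at -4.82 ± 0.04 at 24 h and -4.85 ± 0.03 at 12 h, and then untreated knockout cells at -4.88 ± 0.03. Their arrays overlapped from each to its neighbour in this order. Treated knockout cells at or beside the floor have no order.

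mmu-miR-148b, the member encoded in Copz1, was not well above background on any of the 12 arrays and was not tested. Probe 1 gave mean spot signals between -2.83 and 1.91, around 0 after background subtraction. Probe 2 gave 11.0 and 7.68 in untreated knockout cells, against 8.21 and 10.69 in untreated wild type cells. After 12 h it gave 8.68 and 20.2 in knockout cells, the second with an SD over spots of 15.19, against 8.76 and 4.56 in wild type cells. After 24 h it gave 11.3 and 3.71 in knockout cells, against 7.44 and 4.37 in wild type cells. No more than 5 of about 20 spots were well above background on any array, namely 5 in the replicate 1 knockout array at 24 h, 4 in the replicate 2 array of untreated wild type cells and 1 in the replicate 2 array of untreated knockout cells. Where a probe with exactly 50% of its spots was let through as well, 1 array passed.

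The other strand of the miR-148a hairpin, miR-148a*, had 4 probes, and none of its spots was well above background on any array. Its sequence on chr6:51269867-51269888 shows the strand that was not seen beside the one that was.
mmu-miR-148a-5p: aAAGUUCUgagacacuccgacu
The capitals again mark bases 2 to 8.

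**Figure D2:**
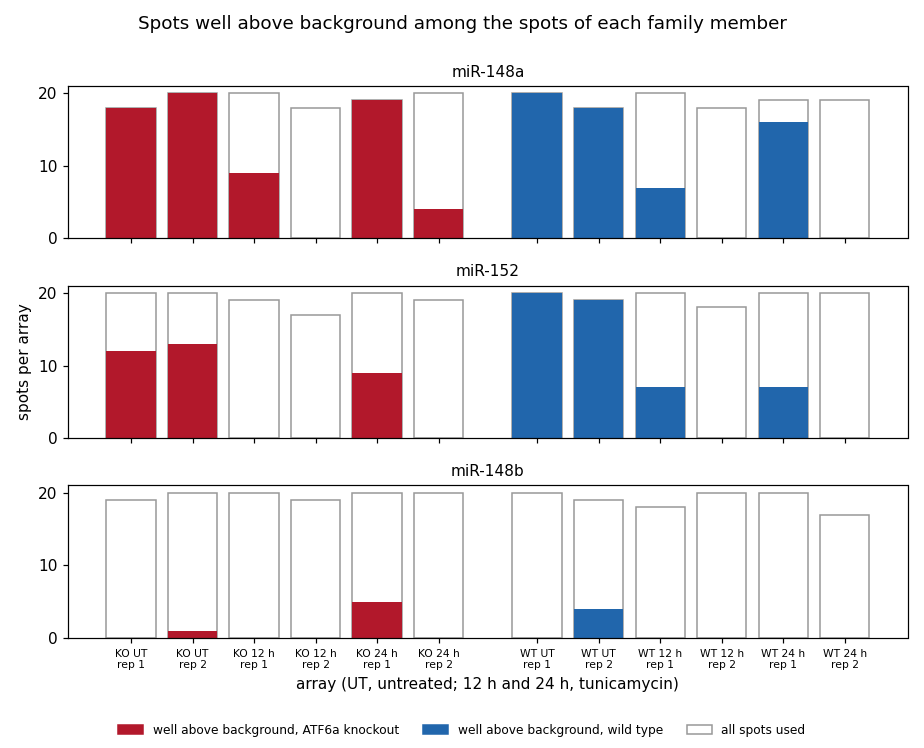
Number of spots per array (vertical axis) well above background, coloured, among all spots used, outlined, for miR-148a, miR-152 and miR-148b on the 12 arrays, ATF6a knockout on the left and wild type on the right. miR-148a and miR-152 fill or nearly fill the untreated wild type bars, the treated replicate 2 bars are empty except for 4 spots of miR-148a in knockout cells at 24 h, and miR-148b never exceeds 5 spots.

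The deposited series table gave another picture of the treated cells. It holds the summed signal per miRNA from the scanner software, as log2 and without scaling between arrays, for miRNAs flagged as detected. For miR-148a its values were 5.31 and 5.16 in untreated knockout cells, against 5.80 and 6.14 in untreated wild type cells, which keeps the order of the genotypes. In knockout cells it gave 4.78 at 12 h, with no value for replicate 2, and 5.77 and 5.99 at 24 h. In wild type cells it gave 6.55 at 12 h, with no value for replicate 2, and 5.11 and 7.75 at 24 h. The last is the highest miR-148a value in that table, on an array where 0 of 19 spots were well above background. For miR-152 the deposited table holds no value on any treated replicate 2 array.

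For most detected miRNAs the summed signal lay within 1.5 times the sum of the probe signals, and for this family on several treated arrays it did not. For miR-148a the 2 agreed on all 4 untreated arrays, and differed by over 1.5 times on 3 treated ones. In knockout cells at 24 h, replicate 2, the summed signal was 63.4 against a probe sum of 29.7. In wild type cells it was 93.7 against 25.7 at 12 h, replicate 1, and 215.9 against 15.8 at 24 h, replicate 2, or 13.6 times as high. For miR-152 it was between 4.71 and 10.1 times the probe sum on the 4 treated replicate 1 arrays, and equal to it on the untreated ones. The flag also marked miR-148b as detected on 5 arrays, the 4 untreated ones and knockout replicate 1 at 24 h, with summed signals of 41.1 to 77.9 against probe sums of 4.89 to 7.76. Across all detected miRNAs, 25.7% to 36.0% per array had a summed signal over 1.5 times the probe sum, so the family is not alone in this, and the step that made it is not given in the sources used here.

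**Figure D3:**
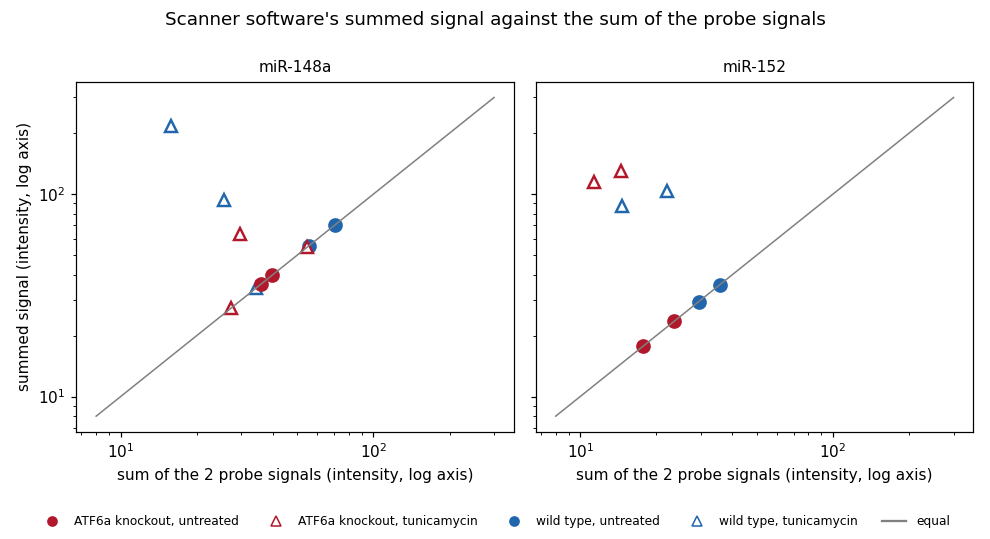
Summed signal written by the scanner software against the sum of the 2 probe signals (both in intensity units, log axes) for miR-148a on the left and miR-152 on the right, with 1 point per array on which the miRNA was flagged as detected; red is ATF6a knockout, blue wild type, filled circles untreated, open triangles tunicamycin. The untreated arrays lie on the line of equality, as do 3 of the 6 treated arrays for miR-148a, while the other 3 lie above it by up to 13.6 times. For miR-152 all 4 treated points lie above it, by up to 10.1 times.

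**Figure D4:**
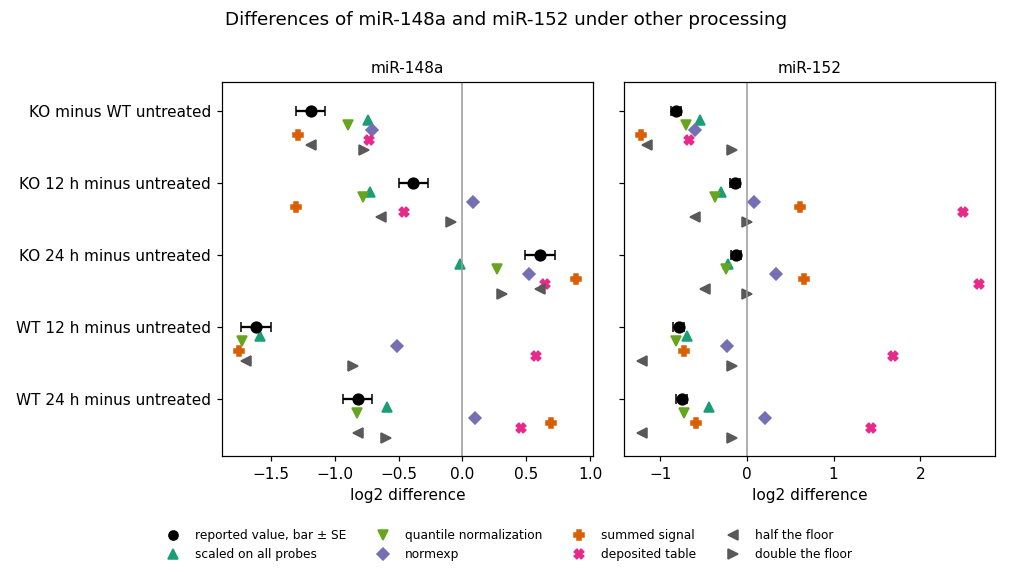
Log2 differences (horizontal axis) of miR-148a on the left and miR-152 on the right in 5 comparisons, with the reported value as a black point with its SE and each other processing as a coloured symbol. The untreated knockout minus wild type difference stays below 0 for both miRNAs, and the deposited table puts the wild type responses above 0, at 0.58 and 0.46 for miR-148a and at 1.68 and 1.43 for miR-152. Each deposited miR-152 response rests on 1 treated array.

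Other miRNAs known, mostly from human cells, to act on DNA methyltransferases were measured beside the family, as a list of 7 (miR-29a, miR-29b, miR-29c, miR-143, miR-342-3p, miR-101a and miR-101b), all of them tested. None passed in the untreated genotype comparison, where 28.0% of all tested miRNAs did and the median log2 difference of the 7 was 0.00 against -0.13 over all tested miRNAs. That median is the value of miR-101a. It was well above background on 2 arrays and had a log2 difference of 0 in every comparison, so it could not pass. In wild type cells 2 of the 7 fell at 12 h and 1 at 24 h, in comparisons where 38.3% and 33.7% of all tested miRNAs did. miR-143 changed by -1.30 ± 0.27 at 12 h (limma, adjusted p = 0.00680). Its change at 24 h was -1.50 ± 0.27 (limma, adjusted p = 0.00371). miR-342-3p changed by -0.67 ± 0.15 at 12 h (limma, adjusted p = 0.00819), and by 0.41 in the deposited table. In knockout cells miR-342-3p fell at 12 h, with a log2 difference of -0.73 ± 0.15 (limma, adjusted p = 0.0138), as 14.3% of tested miRNAs did, and none of the 7 passed at 24 h. The list's median at 12 h was -0.16 in knockout and -0.27 in wild type cells, against medians of all tested miRNAs of -0.09 and -0.27.

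Of 22 miRNAs that have been linked to the unfolded protein response, 13 were bright enough to be tested. In the untreated comparison of knockout with wild type 1 was higher and 1 lower, as 3.43% and 24.6% of all tested miRNAs were. The higher one was miR-222, at 0.62 ± 0.07 (limma, adjusted p = 0.000921), which turned to -0.08 with normexp, and the lower one was miR-96, at -0.69 ± 0.10 (limma, adjusted p = 0.00145). In knockout cells 4 of the 13 fell at 12 h and 3 at 24 h, against 14.3% and 8.0% of all tested miRNAs, and none rose. miR-214 changed there by -1.29 ± 0.19 at 12 h (limma, adjusted p = 0.00350). At 24 h its change was -1.41 ± 0.19 (limma, adjusted p = 0.00284). In wild type cells 4 fell at 12 h and 5 fell at 24 h, against 38.3% and 33.7% of all tested miRNAs, and 2 rose at 24 h, as 7.43% did. Among those that fell was miR-34a, a target of p53, at -0.88 ± 0.10 at 12 h (limma, adjusted p = 0.000753). miR-222 was at the floor on every treated array, and it is counted among those that fell in both genotypes at both times. It had passed the filter through the untreated groups, so its change could only be a fall. The median of the 13 was -0.41 at 12 h in knockout and -0.23 in wild type cells, against medians of all tested miRNAs of -0.09 and -0.27.

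The tested miRNA whose levels followed those of miR-148a most closely was miR-193b, with a Pearson correlation of 0.95 over the 12 arrays. It was followed by miR-136 at 0.86, miR-362-5p at 0.85, miR-301a at 0.83 and miR-331-3p at 0.83, and the median over all other tested miRNAs was 0.29. miR-193b stood at -4.21 and -4.17 in untreated knockout cells, against -3.84 and -3.86 in untreated wild type cells. At 12 h it stood at -4.50 and -4.56 in knockout and at -4.54 and -4.43 in wild type cells, and at 24 h at -3.95 and -4.21 in knockout and at -4.19 and -4.17 in wild type cells. miR-301a was the one of these 5 that was well above background on all 12 arrays. For miR-152 the closest were miR-409-3p at 0.98, miR-154 at 0.97 and miR-376a* at 0.97, against a median of 0.33. miR-409-3p and miR-376a* were each well above background on 4 arrays, so most of their points lie at or near the floor, as those of miR-152 do. miR-148a and miR-152 correlated at 0.72. The 12 points share slides, scanning runs and 1 scaling, and the correlations are a description of these arrays.

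The promoters of the host genes were searched for elements through which ATF6a and related factors act, in windows from 250 bases before to 50 bases after the start of each gene. The endoplasmic reticulum stress element, searched on both strands as CCAAT and CCACG with 9 bases between them, occurred in 0.119% of 32851 windows, among them that of Hspa5, the gene for the chaperone BiP. It did not occur in the windows of Copz1 or Copz2. The second such element, ATTGG and CCACG with 1 base between them, was in 0.0365% of windows and the element TGACGTGG in 0.676%, and none of the Copz1, Copz2 and Hspa5 windows held either. The core CCACG, which forms part of the first 2 elements and, read on the other strand, of the third, was in all 3 windows and in 32.8% of all. The table holds no window for Mir148a. A missing match says only that these letters are not in the window.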

How the data were processed

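Per the labels' protocols, 100 ng total RNA per array was labelled with Cy3. The authors deposited spot intensities from Agilent Feature Extraction 10.7.1.1, named in the submitters' processing notes, with background subtracted, linear and not scaled between arrays, per the file headers. Values of the deposited series table are log2, and equalled that of the summed signal of detected miRNAs. Control and outlier spots were dropped and spots averaged per probe. A probe counted as well above background where over 50% of its spots were flagged so. Arrays were divided by their 75th percentile over 87 probes well above background on all arrays, floored at 0.0309 and log2 transformed. Probes well above background on every array of a group, in at least 1 group, were kept and averaged per miRNA, which gave 306 probes of 175 miRNAs. The fit, over the 6 groups, used limma 3.58.1 (R 4.3.3), where 6 degrees of freedom were residual and 1.16 prior. P-values were adjusted by Benjamini-Hochberg within a comparison at a threshold of 0.05. In 50 simulations, 30 of 175 miRNAs were changed by -1 in untreated knockout cells, and the fit recovered 74.4% of them with 0.88 false calls on average. The simulated noise was normal, with no floor, filter, slide or run, so it does not show how these act on the calls. The number of arrays limits the precision.

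Named are the members and the other hairpin strand on the array, the 5 and 3 miRNAs most correlated with miR-148a and miR-152, called members of the DNA methyltransferase list, and the 4 of the unfolded protein response list with the smallest p. The members and lists were chosen with earlier results of these data known. The planned normexp on mean spot signals was run on median ones, as the columns used here hold no mean.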

Additional observations from a re-analysis of the deposited data

Results flagged for a closer look

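By scaled level, miR-148a moved in opposite directions after 24 h of tunicamycin. It was up on both knockout arrays and down on both wild type arrays relative to every untreated array of the genotype. Before scaling, the knockout log2 ratio was positive in replicate 1 but negative in replicate 2, at -0.30 for probe 1 and -0.18 for probe 2. The knockout response minus the wild type response was 1.43 on the log2 scale, and this difference was not tested, because miR-148a was chosen for it. The opposite signs ended under 4 other settings, with the wild type value at 0.46 in the deposited table, 0.69 by the summed signal and 0.10 with normexp, and the knockout value at -0.019 when arrays were scaled on all probes. The difference between the responses came down to 0.18 in the deposited table. The replicate 2 arrays of both treated groups were not well above background. The fitted interaction of miR-152 was 0.653 after 12 h and 0.627 after 24 h, with limma's adjusted p at 0.00278 for the earlier and 0.00312 for the later time. Its treated knockout levels were at or beside the floor, which bounds the fall that could be measured there, and with the floor halved neither value passed, at adjusted p of 0.385 and 0.168. It is therefore not read as a difference in response.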

How the results depend on the processing

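Under every other setting run, miR-148a and miR-152 both kept the direction of their difference between untreated knockout and wild type cells. They also kept that of their 24 h interaction, as did miR-148a between 24 and 12 h in knockout cells and miR-152 in the 12 h interaction. Sizes and calls did not hold throughout. Some of these settings could not move a difference, so a kept direction there says nothing. They are both blocks, the fit of only the groups compared, the median over probes, no filter on dim probes, and an array left out of a group not compared. For miR-148a the difference between untreated genotypes was -0.73 ± 0.80 (SE) in the deposited table, -0.77 ± 0.05 with the floor doubled and -0.90 ± 0.37 with quantile normalization. It was -0.74 ± 0.66 when scaled on all probes, -0.71 ± 0.29 with normexp and -1.29 ± 1.37 with the summed signal. In the deposited table and with the summed signal it was thus smaller than its SE. Each SE is pooled over all 6 groups, so the spread of the treated arrays enters it, as it enters the p of miR-152. The untreated miR-148a values of the deposited table did not overlap, at 5.31 and 5.16 in knockout against 5.80 and 6.14 in wild type cells. For miR-152 the difference between untreated genotypes lost its call at -0.67 in the deposited table, -0.59 with normexp and -1.22 with the summed signal. It also lost it at -0.70 with quantile normalization and -0.54 where all probes set the scale. In the deposited table, miR-148a turned to 0.58 at 12 h and 0.46 at 24 h in wild type cells, -0.12 between these times, -1.77 at 12 h and -0.55 at 24 h for knockout minus wild type, and -1.04 for the 12 h interaction, while miR-152 turned to 2.49 at 12 h and 2.67 at 24 h in knockout cells, 1.68 and 1.43 in wild type cells, -0.25 between the times in wild type cells, and 0.15 and 0.57 for knockout minus wild type at 12 and 24 h. With the summed signal, miR-148a was at -1.30 and 0.89 in knockout and at -1.75 and 0.69 in wild type cells at 12 and 24 h, and at -0.84 and -1.09 for knockout minus wild type, and miR-152 at 0.61 and 0.66 in knockout cells, -0.73 and -0.58 in wild type cells, and 0.12 and 0.017 for knockout minus wild type. With normexp, miR-148a was at 0.085 at 12 h in knockout cells, -0.51 and 0.10 in wild type cells, and -0.12 and -0.28 for knockout minus wild type, and miR-152 at 0.084 and 0.34 in knockout and -0.23 and 0.21 in wild type cells. Scaled on all probes, miR-148a was at -0.72 and -0.019 in knockout cells, -0.59 at 24 h in wild type cells and -0.17 for knockout minus wild type at 24 h, and miR-152 at -0.69 and -0.44 in wild type cells. With quantile normalization, miR-148a was at -0.78 and 0.27 in knockout cells and miR-152 at -0.73 at 24 h in wild type cells. With the floor doubled, miR-148a was at -0.089 and 0.31 in knockout and -0.86 and -0.60 in wild type cells, and with it halved at -0.64 at 12 h in knockout cells and -0.13 for knockout minus wild type at 12 h, and miR-152 at -0.0065 between the times in wild type cells. By probe 1 alone miR-148a was at -0.16 in knockout and -1.31 in wild type cells at 12 h, and at -0.0052 for knockout minus wild type at 12 h, and by probe 2 alone at -0.61 in knockout and -1.92 in wild type cells at 12 h. Without the 4 arrays of run 4, an alternative chosen after seeing the data, miR-148a was at -0.26 at 12 h in knockout cells and miR-152 at -0.015 between the times in wild type cells. Leaving out 1 array at a time gave -0.50 to -0.26 for miR-148a at 12 h in knockout cells, and -0.076 to 0.16 for knockout minus wild type at 12 h, negative without replicate 1 of the knockout at 12 h; it changed no call of miR-152. The replicate block left every difference as it was, with miR-152 at an adjusted p of 0.000391 between untreated genotypes, 0.000373 and 0.000492 in wild type cells, and 0.00851 and 0.00923 for the interactions, and changed no other call; same-numbered treated arrays deviated together with correlations of 0.82 to 0.94, and the untreated ones at 0.74, but treated against untreated at -0.66 to -0.45, so the numbers were not taken as pairs. Within a slide the replicate number is the scanning run, and with the run as a block the differences were as reported and miR-152 had adjusted p of 0.00103 between untreated genotypes, 0.000722 and 0.000885 in wild type cells, and 0.0169 and 0.0161 for the interactions. Over all miRNAs the calls ranged from 0 to 95 between untreated genotypes, where 49 were reported, from 0 to 72 and 0 to 52 in knockout cells at 12 and 24 h, where 30 and 18 were, and from 0 to 110 and 0 to 97 in wild type cells, where 78 and 72 were; in limma scaling on all probes gave 0 in all 5, where 5, 10, 11, 13 and 11 miRNAs had an unadjusted p under 0.05. A count of 0 also came between untreated genotypes with normexp (19 at that unadjusted p) and with only probes well above background on all arrays (5), in the deposited table for knockout cells at 12 h (30) and wild type cells at 12 h (28) and 24 h (22), and for knockout cells at 12 h when only the groups compared were fitted (34). Scaling on all probes moved the median of all tested miRNAs by 0.35 between untreated genotypes, by -0.68 and -0.50 in knockout cells and by -0.29 and 0.21 in wild type cells. Restricting the fit to probes well above background on all arrays left no family member and so no value. The median over probes and no filter on dim probes could not change the members' differences, since each has 2 probes and both had passed the filter. The cause of these changes was not tested, and the lowest signals well above background limit what the run 4 arrays can show.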
